A study of Canis lupus familiaris with 14 samples.

Results

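COL1A1 and COL1A2, which encode the chains of type I collagen, and COL11A1, which encodes a chain of type XI collagen, were followed in the bone and the osteosarcoma (OSA) tumor of 7 dogs. They are 3 of the 30951 Ensembl genes in the deposited count table, and all 3 are among the 15566 genes that passed the filter on low counts. COL1A1 (ENSCAFG00000017018) and COL1A2 (ENSCAFG00000002069) were picked for their very high counts, and COL11A1 (ENSCAFG00000019985) was picked for its change between tumor and bone. For that reason the levels of the type I genes and the tumor and bone difference of COL11A1 are given below as descriptions without a test.

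The study sequenced polyadenylated RNA from primary OSA tumors and from the second phalanx of the same amputated limb, before any chemotherapy, to compare each tumor with patient-matched bone. Dogs A and F were Golden Retrievers, dog B a Rottweiler, dog C a Doberman Pinscher, dogs D and G Greyhounds and dog E a Great Pyranees. Dogs E and G were spayed females and the others castrated males, and their ages are not used here. The tumors of dogs A, C, E and F were in the distal radius, that of dog B in the distal femur, that of dog D in the proximal humerus and that of dog G in the distal tibia. Each tissue of each dog gave a single library, so there were 7 bone and 7 tumor libraries, with 18650945 to 34479429 total counts. RNA was extracted from bone by a method made for bone and from tumor by homogenization in Tri-Reagent, so the tissue and the extraction method cannot be told apart. The same holds for the skeletal site, as the bone was always a phalanx and no tumor was. The paper also states that the bone was freed of marrow and of cells outside its matrix, while tumors may hold many cell types. In bulk tissue, fewer cells of a type and less RNA per cell also cannot be told apart.

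Type I collagen is the main protein of the bone matrix. Its triple helix is usually built from COL1A1 chains and a COL1A2 chain, and osteoblasts secrete it as a procollagen that is modified, folded, trimmed and cross-linked on its way to the fibril. Type XI collagen is a minor fibrillar collagen, best known from cartilage, where it is incorporated into collagen fibrils and limits their diameter.

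COL1A1 was the most counted gene in 12 of the 14 libraries and the next most counted in the other 2, bone D and tumor C. In tumor C the most counted gene was COL1A2, whose rank elsewhere ran down to 5. Both type I genes together took 13.3% of all counts over the 14 libraries, and COL1A1 alone took 9.83%. In bone, the type I share of a library's counts was 7.71% for dog A, 4.76% for B, 15.6% for C, 2.15% for D, 40.7% for E, 3.19% for F and 11.7% for G. In tumor, it was 10.1% for dog A, 5.91% for B, 6.27% for C, 4.53% for D, 34.1% for E, 6.34% for F and 21.7% for G. Dog E had the highest share in both tissues and dog D the lowest in both, and the ranges of bone and tumor overlapped over most of their length. Bone E stood apart, since the next highest bone library was at 15.6%. The 95% Wilson intervals reached at most 0.0164 percentage points to either side of a share, which covers counting error only.

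**Figure D1:**
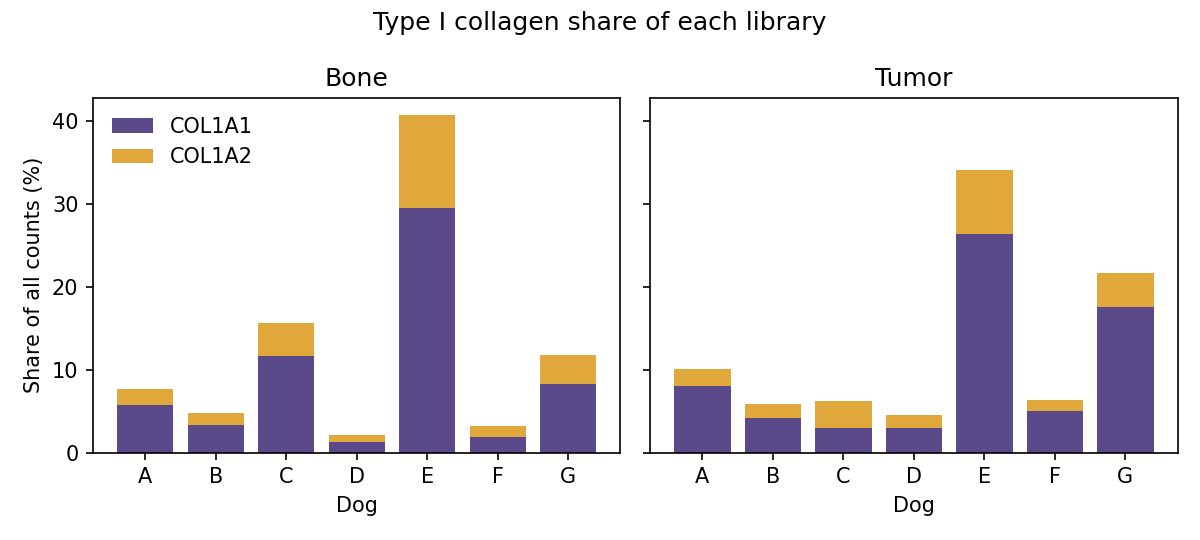
Stacked bars give the percentage of each library's counts that fell on COL1A1 and COL1A2, for the bone (left) and the tumor (right) of dogs A to G. The shares run from 2.15% in bone D to 40.7% in bone E, and dog E is highest in both tissues.

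Normalized levels are given as CPM, that is counts scaled to a common library size with TMM factors. This scaling compares the bulk of the genes between libraries, so a gene that fills a large part of a library can have a CPM above its plain share. COL1A1 ranged from 10952 CPM in dog D to 459692 CPM in dog E in bone, with a median of 55440 CPM. In tumor it ranged from 24018 CPM in dog D to 367464 CPM in dog E, with a median of 42846 CPM. The highest library was 42.0-fold above the lowest, and no tumor exceeded the highest bone library. COL1A2 ranged from 7193 CPM in dog D to 175188 CPM in dog E in bone, with a median of 19145 CPM. In tumor it ranged from 11843 CPM in dog F to 108559 CPM in dog E, with a median of 27546 CPM, and the highest of the 14 libraries was 24.4-fold above the lowest.

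The type I genes differed between dogs more than most genes did, most clearly in bone. COL1A1 had an SD of log2 CPM of 1.87 over the 7 bones and of 1.60 over the 7 tumors. For COL1A2 it was 1.56 in bone and 1.19 in tumor. Without dog E, the bone SD was 1.37 for COL1A1 and 0.97 for COL1A2. Over all 15566 genes tested, the median SD was 0.36 in bone and 0.62 in tumor, and the SD of COL1A1 stood at the 98.4th percentile in bone and at the 89.1st in tumor. That of COL1A2 stood at the 97.1st in bone and at the 80.6th in tumor. The marker genes of bone cells also moved between the bones. The summed level of 5 named osteoblast markers was 2280 to 5662 CPM in bone. That of 5 named osteocyte markers was 267 to 4646 CPM and that of 4 named chondrocyte markers 145 to 5237 CPM, and dog E had the highest sum of each. CHAD was the most counted chondrocyte marker, at 111.8 to 5167 CPM in bone, with at most 9.04 CPM of SOX5, 27.0 of COL9A1 and 42.9 of MATN3. Over the 7 bones the r with COL1A1 was 0.962 for CHAD, 0.628 for MATN3, 0.069 for COL9A1 and -0.548 for SOX5, and it was not computed without dog E. None of these 14 marker genes was at 0 in any bone library. The summed level of 7 adipocyte markers was 506 to 2974 CPM in bone, and it was highest in dog D, where the type I share was lowest. Their part in the type I levels was not tested.

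COL1A1 and COL1A2 did not pass the test between tumor and bone. The log2 change of COL1A1 from bone to tumor of the same dog was 1.11 for dog A, 0.30 for B, -2.18 for C, 1.13 for D, -0.32 for E, 1.64 for F and 1.53 for G. That of COL1A2 was 0.67 for dog A, 0.26 for B, -0.49 for C, 0.83 for D, -0.69 for E, 0.21 for F and 0.72 for G. Tumor exceeded bone for both genes in dogs A, B, D, F and G, and bone exceeded tumor in dogs C and E, and all changes of COL1A2 lay within 1 on the log2 scale. The mean level of COL1A1 was 108761 ± 159088 CPM in bone and 120562 ± 132078 CPM in tumor (SD, n = 7 each), a log2 fold-change of 0.53 (SE 0.61, edgeR quasi-likelihood test, FDR = 0.600). The mean level of COL1A2 was 42178 ± 59839 CPM in bone and 37100 ± 34879 CPM in tumor, whereas the fit within dogs gave a log2 fold-change of 0.22 (SE 0.37, edgeR FDR = 0.737). Without the pairing the fitted log2 fold-change of COL1A2 was -0.19 (edgeR FDR = 0.896), the sign of the mean CPM. The mean log2 CPM of COL1A2, which needs no pairing, was 14.5 in bone and 14.7 in tumor. The sign of COL1A2 therefore depended on how the dogs were averaged. In both directions the difference was smaller than the spread between dogs.

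**Figure D2:**
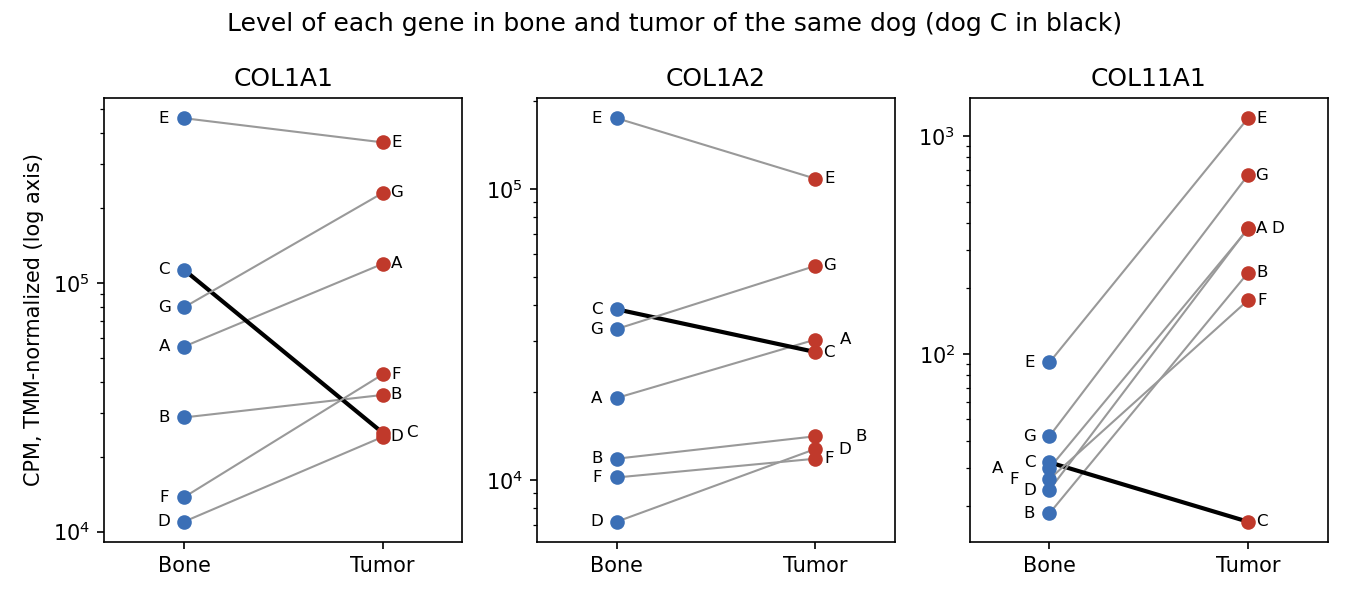
Points give the TMM-normalized CPM of COL1A1, COL1A2 and COL11A1 on log axes, with lines joining the bone and the tumor of each dog and dog C in black. For COL1A1 and COL1A2 the tumor is above the bone in 5 dogs and below it in dogs C and E, while COL11A1 is higher in 6 dogs and lower in dog C.

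Dogs with much COL1A1 also had much COL1A2, most tightly in bone. Over the 7 bones, log2 CPM of both genes had a Pearson r of 0.982 (exact permutation p = 0.000198, the smallest that 7 dogs allow, adjusted p = 0.00179 over 9 relations) and the same order of dogs (Spearman rho = 1, exact p = 0.000397, adjusted p = 0.00357). Leaving out dogs D and E, the farthest from the median, gave an r of 0.960. Over the 7 tumors r was 0.879 (exact p = 0.0109, adjusted p = 0.0312) and rho was 0.75 (exact p = 0.0663, adjusted p = 0.149). Without dogs E and G the tumor r was 0.468, so the relation among tumors rested on these dogs. It also missed the threshold after adjustment when dog A, B, D, E or G was left out, with r from 0.777 to 0.972 over all omissions, the highest without dog C. For the changes from bone to tumor, r was 0.781 (exact p = 0.0349, adjusted p = 0.0629) and rho was 0.57 (exact p = 0.200, adjusted p = 0.225), and without dogs C and E r was 0.233.

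The balance of both chains was read from the number of COL1A1 counts per COL1A2 count, which needs no normalization between libraries. The gene lengths were not used, so this ratio compares libraries and does not give the ratio of transcripts. In bone it was 2.90 for dog A, 2.43 for B, 2.93 for C, 1.52 for D, 2.62 for E, 1.35 for F and 2.41 for G. In tumor it was 3.93 for dog A, 2.51 for B, 0.906 for C, 1.88 for D, 3.38 for E, 3.62 for F and 4.22 for G. The tumor had the higher ratio in 6 dogs and the lower in dog C, whose tumor was the only library with fewer COL1A1 than COL1A2 counts. Its 95% Wilson interval in tumor C was 0.903 to 0.910, so counting error did not reach equal counts.

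On the log2 scale the mean ratio was 1.15 in bone and 1.39 in tumor, a difference of 0.24 ± 0.96 (SD, n = 7 dogs). This was smaller than the spread between dogs (exact permutation test within dogs, two-sided, p = 0.516, 0.0156 being the smallest p possible with 7 dogs). Single dogs ranged from -1.69 in dog C to 1.43 in dog F. Single dogs moved this result. The mean difference was 0.56 without dog C, the dog known to go the other way (exact permutation p = 0.0312, the smallest that 6 dogs allow), 0.15 without dog G (exact p = 0.594) and 0.045 without dog F (exact p = 0.969). The 4 libraries with the lowest COL1A1 levels, bone D at 10952 CPM, bone F at 13734 CPM, tumor D at 24018 CPM and tumor C at 24970 CPM, also had the 4 lowest ratios. COL1A1 is part of both measures, and the relation was not tested.

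**Figure D3:**
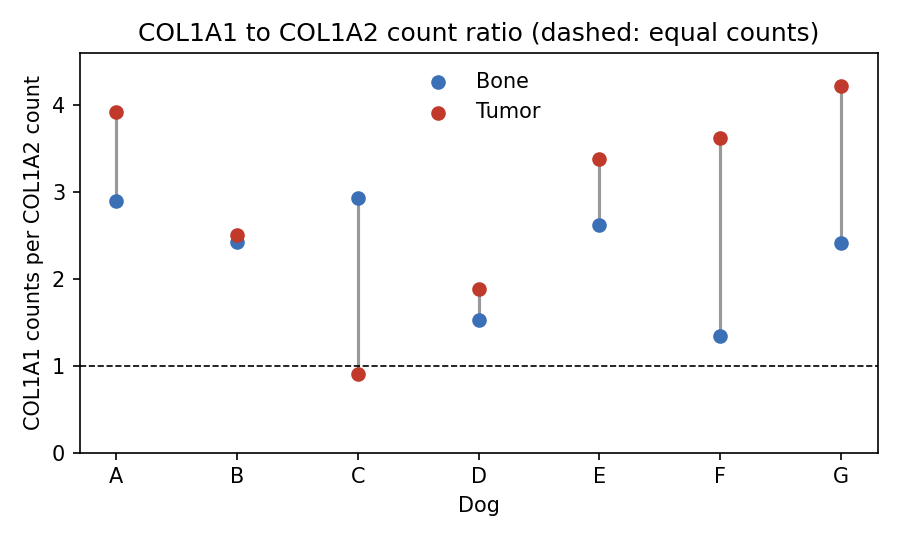
Points give the number of COL1A1 counts per COL1A2 count in the bone (blue) and tumor (red) of dogs A to G, joined within each dog, with a dashed line at equal counts. The tumor lies above the bone in 6 dogs, and in dog C the bone is at 2.93 and the tumor at 0.906.

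COL11A1 took far fewer counts and separated the tissues in 6 of the 7 dogs. In bone it had 29.8 CPM for dog A, 18.5 for B, 31.8 for C, 23.7 for D, 91.4 for E, 26.6 for F and 41.9 for G. In tumor it had 375 CPM for dog A, 236 for B, 16.9 for C, 379 for D, 1212 for E, 177 for F and 664 for G. All tumors but that of dog C were above the highest bone, and tumor C was below every bone. The log2 change was 3.65 for dog A, 3.67 for B, -0.90 for C, 3.996 for D, 3.73 for E, 2.73 for F and 3.99 for G, with a mean of 2.98 ± 1.76 (SD, n = 7). Without dog C the mean was 3.63. Because COL11A1 was chosen from this contrast, these values carry no test.

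The counts behind these levels were 489 to 2019 in bone and 377 to 28536 in tumor, and the 95% Wilson intervals reached at most 10.6% of a value to either side, and the low level of tumor C rested on 377 counts. COL11A1 ranked between 1826 and 6987 among the genes of a bone library. It ranked between 65 and 783 in the tumors other than C, and 7319 in tumor C. Its SD of log2 CPM was 0.74 in bone, at the 84.6th percentile of the genes tested, and 1.96 in tumor, at the 93.8th. Tumor C carried much of the latter, since the SD of the other 6 tumors was 1.01.

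Relative to type I collagen, COL11A1 was above its bone value in all 7 tumors, that of dog C included. In bone there were 39.99 COL11A1 counts per 100000 type I counts for dog A, 45.5 for B, 20.9 for C, 131 for D, 14.4 for E, 111 for F and 37.1 for G. In tumor there were 251 for dog A, 476 for B, 32.3 for C, 1030 for D, 255 for E, 323 for F and 234 for G. The tumors other than C were at 234 or more, above the highest bone at 131, and tumor C lay within the range of the bones. The mean log2 change was 2.57 ± 1.17 (SD, n = 7), from 0.62 in dog C to 4.15 in dog E. In dog C the direction depended on the chain, since the log2 change of COL11A1 was 1.27 per COL1A1 count and -0.42 per COL1A2 count. The other 6 dogs were higher in tumor against either chain. Dog E had the highest COL11A1 level of each tissue, and its bone had the lowest COL11A1 per type I count. Dog D had the highest COL11A1 per type I count of each tissue with the lowest type I share. Type I counts are the divisor of this measure, so a low type I share raises it. Over the bones the type I share spanned 18.9-fold and the COL11A1 share 2.70-fold.

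**Figure D4:**
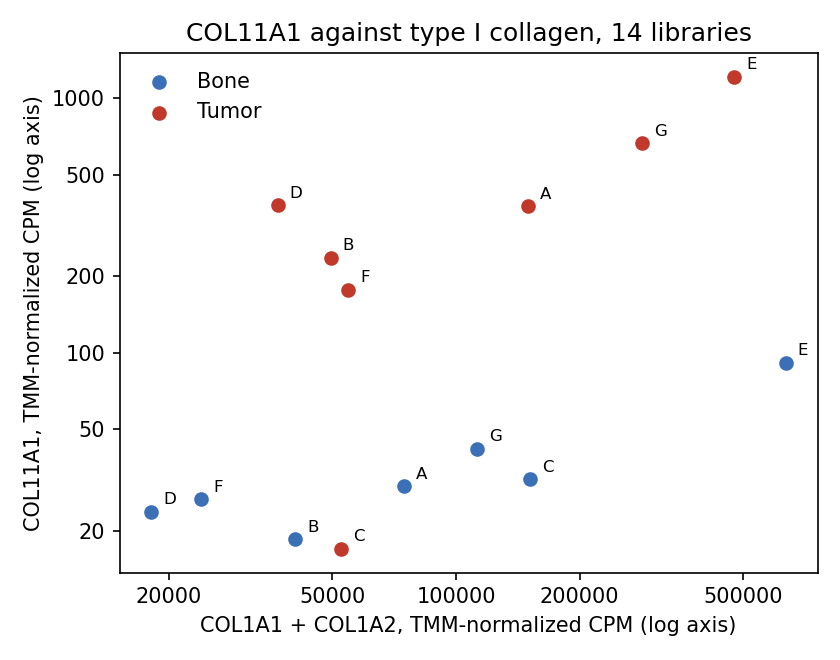
Each point is a library, with the TMM-normalized CPM of COL1A1 and COL1A2 together on the x axis and of COL11A1 on the y axis, both log axes, bone in blue and tumor in red. The tumors other than that of dog C lie above all the bones in COL11A1 at overlapping type I levels, and tumor C lies just below the lowest bone.

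Within bone, the level of COL11A1 correlated with those of the type I genes on the TMM scale. Its r was 0.926 with COL1A2 (exact permutation p = 0.00615, adjusted p = 0.0277, rho = 0.86, exact p = 0.0238, adjusted p = 0.0714) and 0.855 with COL1A1 (exact p = 0.0139, adjusted p = 0.0312, rho = 0.86, exact p = 0.0238, adjusted p = 0.0714). Without dogs D and E these were 0.759 and 0.605, and both relations missed the threshold when dog A, E or G was left out, that with COL1A1 also without dog D. On total counts without TMM factors both missed it too, with an r of 0.815 for COL1A2 (adjusted exact permutation p = 0.119) and 0.691 for COL1A1 (adjusted p = 0.185). In tumor r was 0.722 with COL1A1 (exact p = 0.0444, adjusted p = 0.0667, rho = 0.61, exact p = 0.167, adjusted p = 0.214) and 0.428 with COL1A2 (exact p = 0.345, adjusted p = 0.345, rho = 0.64, exact p = 0.139, adjusted p = 0.214). Without the 2 farthest tumors these were 0.449 and 0.087. Single dogs moved them as well. The r with COL1A2 was 0.933 without dog C (adjusted exact permutation p = 0.0219) and 0.10 without dog E, and the r with COL1A1 was 0.865 without dog D (adjusted p = 0.0333). The changes of COL11A1 and COL1A1 had an r of 0.798 (exact p = 0.0986, adjusted p = 0.127, rho = 0.29, exact p = 0.556, adjusted p = 0.556). That value rested on dog C, since it was -0.282 without dog C, 0.890 without dog E and -0.321 without both. For COL1A2 the r of the changes was 0.554 (exact p = 0.175, adjusted p = 0.197, rho = 0.61, exact p = 0.167, adjusted p = 0.214) and 0.777 without dogs C and E. It was 0.252 without dog C alone and 0.928 without dog E alone (adjusted exact permutation p = 0.025).

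The genes that build, modify and bind collagen were followed next in lists drawn from textbook knowledge. Gene names were at hand for 2292 identifiers, taken from the tables of the study, which hold mostly genes it called. Of all 15566 genes tested, 10.8% passed an FDR of 0.05 (5.41% higher and 5.40% lower in tumor), but of the 2186 tested genes with a name 67.3% did (34.2% higher and 33.1% lower). The DESeq2 Wald test called 23.6% of all genes tested but 2185 of these 2186, so its calls do not separate the lists. The edgeR counts below are to be read against the 67.3% of named genes (34.2% higher and 33.1% lower) and describe the named genes only. The median log2 fold-change of all genes tested was -0.02.

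Of 11 fibrillar collagen chains, 4 could be named, the 3 genes above and COL5A1, a chain of the minor fibrillar collagen V that joins type I collagen in fibrils. COL5A1 was 400 to 4043 CPM in bone (median 984) and 1291 to 5074 CPM in tumor (median 1624), with overlapping ranges. Tumor exceeded bone in 6 dogs, and the log2 change was -0.07 in dog C. Its log2 fold-change was 1.27 (SE 0.31, edgeR FDR = 0.0349), a call that was lost without dog A, B, D, F or G and when the pairing was left out. The median log2 fold-change of these 4 chains was 0.90. The other 7 fibrillar chains, collagens II and III among them, were not analysed here.

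Of 33 other collagen chains, 15 could be named, of which 2 rose, 3 fell and 10 did not pass, with a median log2 fold-change of -2.90. The chains of collagen VI, a beaded-filament collagen found around cells, were those that rose. COL6A1 was 1994 to 7183 CPM in bone and 4338 to 16109 CPM in tumor (log2 fold-change 1.17, SE 0.27, edgeR FDR = 0.0308) and exceeded bone in all 7 tumors. COL6A3 was 439 to 2285 CPM in bone and 747 to 3561 CPM in tumor (log2 fold-change 1.42, SE 0.38, edgeR FDR = 0.0467) and was higher in 6 dogs, with -0.14 in dog C. COL20A1, COL4A3 and COL4A4 fell from means of 4.91, 2.30 and 4.45 CPM in bone to 0.0205, 0.0593 and 0.187 CPM in tumor. COL4A3 and COL4A4 encode chains of a specialised basement membrane collagen. Their fitted log2 fold-changes of -7.46, -5.52 and -5.16 (edgeR FDR = 0.00210, 0.00463 and 0.00639) depend on the prior count, because each was at 0 in at least 1 tumor. The most counted chains that did not pass were COL4A1, of the general basement membrane collagen IV, and COL12A1, which binds along type I fibrils. COL4A1 had means of 865 CPM in bone and 2179 CPM in tumor (log2 fold-change 1.06, edgeR FDR = 0.0720), and COL12A1 had 309 and 965 CPM (1.14, edgeR FDR = 0.176). COL12A1 exceeded bone in 6 tumors, with -2.19 in dog C. The 5 calls of this list became 3 without dog A, B, F or G.

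Genes for the modification and folding of collagen chains formed the list with the most calls. Of 25 such genes 14 could be named, and 13 rose while COLGALT2 fell, against 34.2% and 33.1% of all named genes. The median log2 fold-change of the list was 0.98. PLOD3, a lysyl hydroxylase that also adds glucose to collagen, had 122 to 222 CPM in bone and 262 to 460 CPM in tumor, without overlap (log2 fold-change 0.99, SE 0.14, edgeR FDR = 0.00546). SERPINH1, the collagen-specific chaperone HSP47, had 455 to 2392 CPM in bone and 1334 to 2827 CPM in tumor (1.19, SE 0.23, FDR = 0.0167). COLGALT1, a collagen galactosyltransferase (1.15, FDR = 0.00650), P3H4, a partner of the lysyl hydroxylases in the endoplasmic reticulum (1.18, FDR = 0.0108), HSPA5, a general chaperone of that compartment (1.01, FDR = 0.0158), and PLOD1, a further lysyl hydroxylase (1.06, FDR = 0.0191), also rose. Each of these 6 genes exceeded bone in all 7 tumors, that of dog C included. COLGALT2, a related galactosyltransferase, lay below bone in 6 tumors and above it in dog C (-2.33, FDR = 0.0251). The number called depended on the dogs, with 3 of 14 without dog B, 6 without dog G, 7 without dog A or F, 8 without dog C, 9 without dog D and 13 without dog E, and it was 9 when the pairing was left out.

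Among 15 genes of propeptide cleavage and cross-linking, 4 could be named, of which 2 rose and 2 fell (median log2 fold-change -0.39). BMP1, the protease that removes the C-terminal propeptide of procollagen, rose from a mean of 177 to 308 CPM (0.88, SE 0.22, edgeR FDR = 0.0388). LOXL2, a lysyl oxidase of the cross-linking family, rose from 79.6 to 204 CPM (1.22, FDR = 0.0416). PCOLCE2, which enhances that protease, fell from 72.2 to 21.3 CPM (-1.65, FDR = 0.0155), and TLL2, a relative of BMP1, fell from 1.81 to 0.609 CPM (-1.76, FDR = 0.0248). The number of calls in this list was 1 without dog A, B or C, 2 without dog D, E, F or G, and 2 without the pairing.

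Of 18 fibril-binding matrix proteins 4 could be named, and 0 of them passed the edgeR test at an FDR of 0.05, while 1 (DCN) had an unadjusted p under 0.05 and the DESeq2 Wald test called all 4. Decorin (DCN), a proteoglycan that binds type I fibrils, was the most counted of them, at 1006 to 2187 CPM in bone and 220 to 1683 CPM in tumor (-1.14, edgeR FDR = 0.0802). Thrombospondin 2 (THBS2), a matricellular protein whose loss disturbs fibril shape, was 33.2 to 395 CPM in bone and 16.8 to 1990 CPM in tumor (1.66, edgeR FDR = 0.230). For both, dog C had the lowest change of the 7 dogs, -3.07 for DCN and -2.92 for THBS2. The median log2 fold-change of this list was -1.46.

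Of 15 collagen receptors and collagen-degrading genes 4 could be named, and MMP14, a membrane-bound collagenase, was the one that passed. It had 401 to 905 CPM in bone and 1059 to 1961 CPM in tumor, without overlap and higher in all 7 dogs (1.06, SE 0.19, edgeR FDR = 0.0122). The osteoclast enzymes MMP9 (3639 CPM in bone and 2437 CPM in tumor, -2.06, FDR = 0.173) and CTSK (1983 and 1414 CPM, -1.24, FDR = 0.171), the most counted of the rest, did not pass. The median log2 fold-change of the list was -1.65, and 2 genes passed without dog E.

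**Figure D5:**
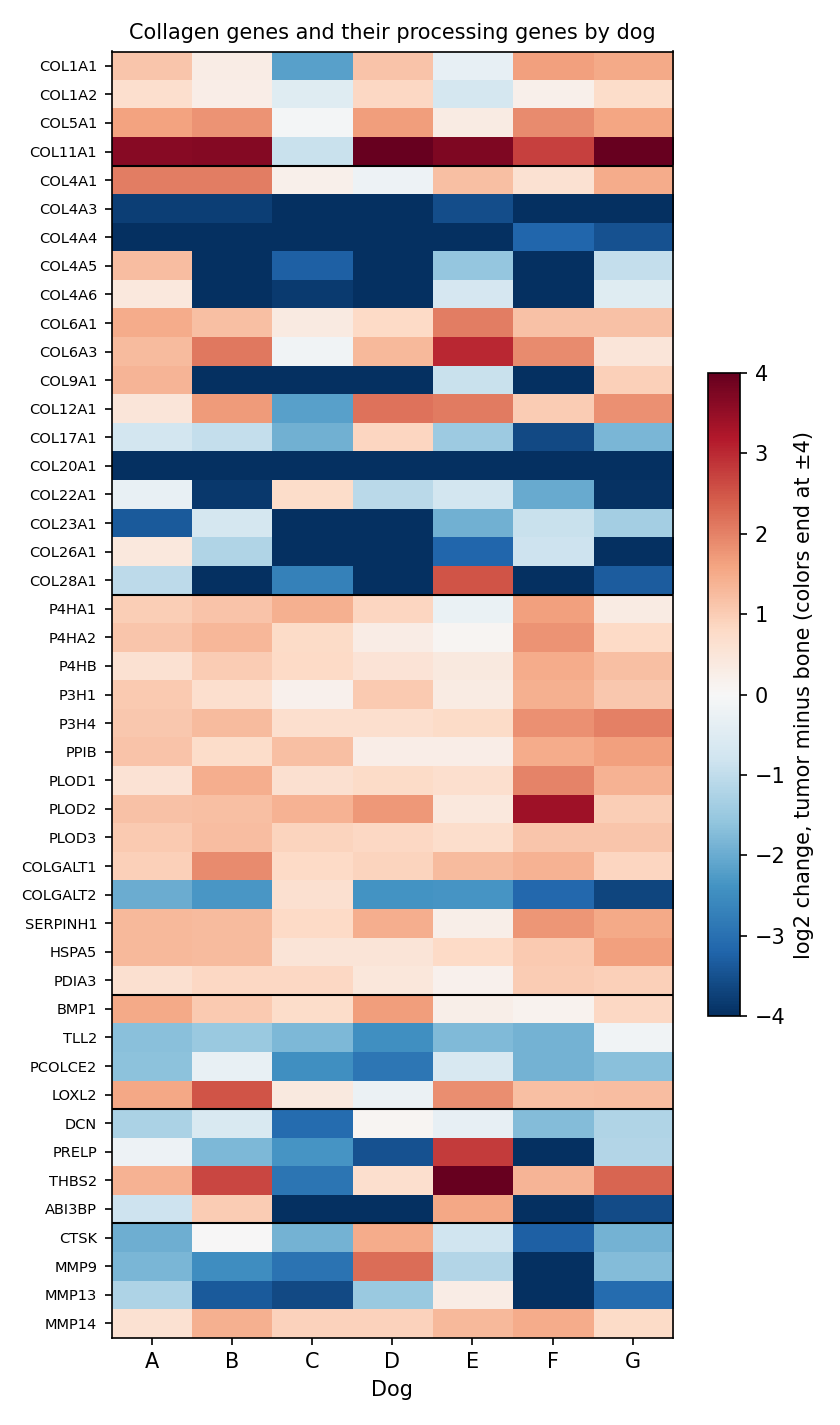
Colors give the log2 change from bone to tumor (red higher and blue lower in tumor, ending at 4 either way) for each named gene of the 6 lists, separated by black lines, in dogs A to G. COL1A1 is blue in dogs C and E, COL11A1 is blue in dog C, and the modification and folding genes other than COLGALT2, which is blue in 6 dogs, are red in nearly all dogs.

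Most of the pathway genes that passed had the group's direction in dog C too. Leaving out the 3 genes above, 19 pathway genes rose and 6 fell. In dog C 17 of the 19 were higher and 5 of the 6 were lower in tumor, with median log2 changes of 0.76 and -3.43. In dogs D and E 18 of the 19 were higher, and in dogs A, B, F and G all 19 were. The median change of the 19 genes was lowest in dog E at 0.43 and highest in dog F at 1.48. These genes were called on the same 7 dogs, so their counts per dog are a description.

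Across the 14 libraries, each tissue centred on its mean, the named genes closest in pattern to COL1A1 were COL5A1 (r = 0.954), COL1A2 (0.940), ADGRA2 (0.915), FAM104A (0.906) and SERPINH1 (0.905), with 15 unnamed genes above the last. Those closest to COL1A2 were COL1A1 (0.940), COL5A1 (0.935), SERPINH1 (0.920), P3H1 (0.901), a prolyl 3-hydroxylase, and BMP1 (0.890), with 9 unnamed genes above the last. Those closest to COL11A1 included SLIT2 (0.905), C5H11orf87 (0.891), TMEM45A (0.889) and COL12A1 (0.858), with 23 unnamed genes above the last. COL1A1 and COL11A1 had an r of 0.668 by this measure and COL1A2 and COL11A1 an r of 0.503. The points share their library, depth and base composition, so these values describe likeness and carry no p.

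The same likeness was also described within each tissue. Over 7 bones, the 14 modification and folding genes had a median r of 0.770 with COL1A1 and 13 were positive. Over 7 tumors it was 0.495 with 10 positive, while the median over all genes tested was -0.07 in bone and -0.04 in tumor. With COL11A1 the same list had a median r of 0.756 in bone and 0.212 in tumor. BGLAP, the osteocalcin gene of mature osteoblasts, had an r of 0.943 with COL1A1 in bone and -0.239 in tumor. THBS2 had an r of 0.972 with COL11A1 in tumor and -0.336 in bone, and COL6A3 had 0.967 in tumor and -0.073 in bone. BGLAP, THBS2 and COL6A3 were picked with their values known, and the differences between tissues were not tested. The r of these genes and lists were not computed without single dogs, such as dog E, whose bone stood apart in type I share.

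Named cell type markers moved between the tissues beside the collagen genes. The names came mostly from genes the study called between these tissues, so the named markers were largely picked for a difference. Their counts and sums therefore describe the named markers and do not measure a cell type. Of 10 osteoblast markers 5 could be named, and 3 fell in tumor (BGLAP, SPP1 and DLX5). Their summed level was 285 to 1890 CPM in tumor against 2280 to 5662 CPM in bone, and none of the 5 was at 0 in any tumor. Of 7 osteocyte markers 5 could be named and 3 fell, with a summed level of 3.91 to 471 CPM in tumor, and FGF23 was at 0 in at least 1 tumor. Of 15 chondrocyte markers 4 could be named and 2 fell, with a summed level of 9.11 to 784 CPM in tumor, and COL9A1 was at 0 in at least 1 tumor. MATN3 and CHAD were the genes that fell. COL9A1 (-3.75, edgeR FDR = 0.195) and SOX5 (-1.996, edgeR FDR = 0.113) did not pass, and both were higher in the tumor than in the bone of dog A, COL9A1 also in dog G. Of 8 adipocyte markers 7 could be named and all 7 fell, to a summed level of 77.8 to 248 CPM. Tumor C had the highest osteocyte sum of the tumors, 471 CPM, of which 434 CPM was DMP1, while SOST and MEPE had log2 changes of -5.44 and -7.58 in dog C. It had an osteoblast sum of 1409 CPM and a chondrocyte sum of 83.2 CPM within the range of the other tumors.

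Markers of other cells gave fewer values, and the same limit holds for them. FAP, 1 of the 2 tendon and fibroblast markers that could be named of 10, rose in tumor. The other, PDGFRB, had a mean of 535 CPM in bone and 318 CPM in tumor and a lower value in the tumor of each of the 7 dogs, but did not pass (log2 fold-change -0.99, edgeR FDR = 0.0591). Their summed level was 456 to 849 CPM in bone and 260 to 666 CPM in tumor, with 274 CPM in tumor C. Of 8 osteoclast markers 6 could be named and CALCR fell, with sums of 2363 to 9231 CPM in bone and 211 to 10198 CPM in tumor. CD5L, the named macrophage marker of 8, rose from at most 1.21 CPM in bone to 0.148 to 102 CPM in tumor. Both named endothelial markers of 7 fell, from 152 to 533 CPM in bone to 32.2 to 75.6 CPM in tumor. The single named skeletal muscle marker of 8 and the single named erythroid marker of 5 did not pass, and no T cell marker of 6 could be named. What part these cells had in the collagen values was not tested.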

How the data were processed

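The 14 libraries hold polyadenylated RNA, 1 from bone and 1 from tumor for each of 7 dogs. Per the submitters' processing notes, whose Trimmomatic version differs from that in the study's methods, the authors checked reads with FastQC 0.10.1, trimmed them with Trimmomatic 0.39, mapped them to CanFam3.1 with HISAT2 2.2.1 and counted them per Ensembl gene with StringTie 1.3.3. The deposited values are raw counts per gene without normalization. Whether strand and multi-mapping were considered in counting is not given in the sources used here. No gene length or sequence was used.

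The test of tumor against bone was edgeR's quasi-likelihood F test (version 4.0.16 under R 4.3.3), with TMM factors, a design of dog plus tissue and Benjamini-Hochberg adjustment over the 15566 genes kept by filterByExpr (minimum count 10) of the 27655 with at least 1 count. Genes were called at an FDR under 0.05. Log2 CPM used a prior count of 2. The study kept every gene with at least 1 count for its DESeq2 fit and later cut its calls by mean count and fold-change. Those later cuts were not simulated, so the rates below are of the edgeR fit and not of the study's calls. On simulated counts with gene-specific dispersion, the filter of at least 1 count gave 22.7% and 17.6% unchanged genes among the edgeR calls in 2 draws (27312 and 27329 genes). It recovered 96% and 93% of genes changed by 2 and 20% and 15% of those changed by 1 on the log2 scale. With filterByExpr (16349 and 16473 genes) the unchanged genes among the calls were 4.44% and 4.76%. There 78% and 77% of genes changed by 2 were recovered, and 8% and 3% of those changed by 1. Libraries were paired by animal. Deviations from the tissue mean over 15566 genes correlated within dogs at 0.0730 to 0.164 (6 of 7 over 0.1), against a median of -0.0189 between dogs. Ratios were tested by exact exchange of bone and tumor within dogs, and correlations by exact permutation with adjustment over 9 relations.

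The genes and lists were chosen with earlier results of these data known. The symbols COL1A1 and COL1A2 come with the choice of these genes, and the other symbols from tables of the study (2292 identifiers). Named genes are the 3 collagen genes, every named fibrillar chain, in each other pathway list up to 6 called genes in each direction by FDR and the 2 most counted not called, and for each collagen gene the 5 named genes of most similar pattern. A gene that this rule names for COL11A1 is not reported here. A gene can stand in more than 1 list (COL9A1 and CTSK do). Alternatives were DESeq2 1.42.0, other scalings, the study's filter, no pairing, a variance stabilizing transformation and the omission of dogs.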

Additional observations from a re-analysis of the deposited data

Results flagged for a closer look

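In 3 of 18 groups of 7 values examined, the extreme value stood further from its nearest neighbour than Dixon's 95% critical value (0.568 of the range), a gap that chance gives in about 1 of 20 groups. The type I shares and the COL11A1 changes were also among the values by which these genes were chosen, so the gaps are given as descriptions and not as tests. Dog C had a COL11A1 log2 change of -0.904, with a gap of 0.741 of the range of the 7 dogs. Tumor C had a log2 ratio of COL11A1 to type I counts of -11.60, with a gap of 0.572 of the range. Bone E had 40.7% of its counts on type I collagen on a linear scale, with a gap of 0.651 of the range.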

How the results depend on the processing

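The edgeR fit called 1682 genes (842 higher and 840 lower). DESeq2 called 3680, the filter of at least 1 count gave 1079, leaving out dogs A and B, which held the libraries of lowest RNA integrity, gave 323, and leaving out each dog gave 760 (without B) to 1164 (without E). The fit with no replicate block, that is without pairing, called 2228 genes (1354 higher, 874 lower), scaling to total counts 428 higher and 771 lower, and total counts without COL1A1 and COL1A2 467 higher and 916 lower. Total counts moved the median log2 fold-change of all genes from -0.016 to -0.128. COL1A2 turned to -0.19 without the replicate block (edgeR FDR = 0.896), where COL1A1 was 0.15 (FDR = 0.932). Neither passed under any alternative run. The log2 ratio of COL1A1 to COL1A2 ranged from 0.045 (without dog F) to 0.56 (without dog C) over the omissions of single dogs, and the unpaired exact permutation p was 0.497. The COL1A1 and COL1A2 correlation in tumor was 0.773 on total counts (adjusted p = 0.119) and 0.777 to 0.972 over the omissions. That of their changes was 0.595 on total counts (adjusted exact permutation p = 0.226) and 0.748 to 0.848 over the omissions, passing without dog F. That of the changes of COL1A1 and COL11A1 was -0.282 without dog C to 0.893 without dog F. The 25 calls in the pathway lists became 42 of 42 by DESeq2, which called 2185 of the 2186 named genes, 17 without the replicate block and 8 (without B) to 22 (without E) over the omissions. The mean change of COL11A1, also per type I count and per COL1A2 count (2.77, added after the data were seen), moved by less than the spread between dogs under every alternative run. Counting error reached 0.371% of a type I value and 10.6% of a COL11A1 value. The cause of the changes was not tested.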
